A study of Mus musculus with 5 samples.

Results

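Cell cycle and DNA replication genes were followed across 5 CD4+ T cell cultures. The 44 genes were listed by their function as markers and regulators of the dividing cell, though with earlier results of these data known. Of these, 42 were measured under a single gene symbol among 22180 named genes. They comprise 23 measured genes of the G1 phase and DNA synthesis (G1/S), 16 of G2 and mitosis (G2/M) and 3 inhibitors of cyclin-dependent kinases (CDKs). *Ccne2* was left out because its probes carry a second gene symbol, and the expression of *Ccnb1* was not analysed here. Naive CD4+ CD62L+ T cells came from spleens of TRP-1 mice of both sexes, 6 to 8 weeks old, a *Rag1*-mutant strain whose transgenic T cell receptor recognizes tyrosinase-related protein-1. They were primed for 3 days with 5 µg/ml of the TRP-1 peptide and irradiated splenic antigen-presenting cells of C57BL/6 mice from which T cells had been removed. Th1 and Th2 media both held IL-2 at 100 U/ml. To this, Th1 medium added 5 ng/ml of IL-12 with 10 µg/ml of an antibody to IL-4, and Th2 medium added 10 ng/ml of IL-4 with 10 µg/ml of an antibody to IFN-γ. The 3 Th9 media held the same IL-4 and anti-IFN-γ with no added IL-2, together with TGF-β at 1 ng/ml (Th9 IL-4+TGF-β, called classic Th9), with IL-1β at 10 ng/ml (Th9 IL-4+IL-1β, called IL-1β Th9) or with both (Th9 IL-4+TGF-β+IL-1β, called TGF-β/IL-1β Th9). Each culture was hybridized to its own Affymetrix Mouse Gene 2.0 ST array, and every difference below is between 2 arrays, without a replicate error or a test.

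A naive T cell rests outside the cell cycle and divides repeatedly after antigen recognition. D-type cyclins with Cdk4 or Cdk6, and then cyclin E with Cdk2, release E2F transcription factors, which switch on the genes that license and copy DNA. Cyclin A, cyclin B and Cdk1 then drive the cell through G2 and mitosis, while p21, p27 and p18 (*Cdkn1a*, *Cdkn1b* and *Cdkn2c*) restrain the kinases. TGF-β is known as an inhibitor and IL-2 as a promoter of T cell division.

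The promoters are shown because G1/S and G2/M genes are known to be driven through different DNA elements. RefSeq promoter windows (GRCm38.p6, from 250 bases before to 50 after a gene's start) were matched for 37 of the 44 genes (*Ccnb1*, which has no expression value here, among them) and searched on both strands for TTTNNCGC (an E2F element), TTTGAA or TTCGAA (a cell cycle homology region, CHR) and CCAAT, each without regard to overlap with the others. The E2F letters were present in 10 of the 23 windows of G1/S genes (43.5%), in 1 of the 14 of G2/M genes (7.14%) and in 5.17% of all 32851 windows. The CHR letters were present in 3 G1/S windows (13.0%), in 10 G2/M windows (71.4%) and in 19.2% of all windows. CCAAT was found in 14 G1/S windows (60.9%) and 12 G2/M windows (85.7%), against 37.4% of all. None of the 5 windows of the inhibitors held an E2F or CHR match, and 2 held CCAAT (40.0%). Below are 170 bases (150 before the start and 20 after it) of G1/S genes (*Mcm5* and *Cdc6*), of G2/M genes (*Ccnb2* and *Kif11*) and of both starts of *Ccnd3*, the member that varied most. Capitals mark matches of any of these motifs on either strand.
Mcm5 (chr8:75109359-75109528, plus strand): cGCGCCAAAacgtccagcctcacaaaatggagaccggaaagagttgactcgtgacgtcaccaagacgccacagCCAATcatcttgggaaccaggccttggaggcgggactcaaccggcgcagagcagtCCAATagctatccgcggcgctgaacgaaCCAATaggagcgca
Cdc6 (chr11:98908001-98908170, plus strand): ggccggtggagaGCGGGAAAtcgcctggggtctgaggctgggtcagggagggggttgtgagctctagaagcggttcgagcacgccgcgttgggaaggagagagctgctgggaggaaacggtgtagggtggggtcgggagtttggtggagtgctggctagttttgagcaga
Ccnb2 (chr9:70421535-70421704, minus strand): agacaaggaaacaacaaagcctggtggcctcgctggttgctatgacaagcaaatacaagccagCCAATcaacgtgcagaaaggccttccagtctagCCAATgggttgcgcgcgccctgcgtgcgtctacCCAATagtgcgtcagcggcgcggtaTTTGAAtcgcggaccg
Kif11 (chr19:37376232-37376401, plus strand): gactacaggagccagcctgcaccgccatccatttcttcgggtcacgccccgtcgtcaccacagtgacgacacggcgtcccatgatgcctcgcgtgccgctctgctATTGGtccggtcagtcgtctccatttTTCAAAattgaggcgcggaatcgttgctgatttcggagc
Ccnd3, first start (chr17:47504901-47505070, plus strand): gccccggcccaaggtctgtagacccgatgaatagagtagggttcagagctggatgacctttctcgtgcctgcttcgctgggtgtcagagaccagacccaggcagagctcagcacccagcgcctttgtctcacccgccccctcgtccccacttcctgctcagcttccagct
Ccnd3, second start (chr17:47593317-47593486, plus strand): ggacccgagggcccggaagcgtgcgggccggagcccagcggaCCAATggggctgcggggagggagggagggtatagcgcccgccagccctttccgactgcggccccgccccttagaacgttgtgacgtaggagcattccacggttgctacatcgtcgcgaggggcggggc
In the stretches shown, *Mcm5* had 1 E2F match and 3 CCAAT boxes and *Cdc6* had 1 E2F match, whereas *Ccnb2* had 1 CHR match after 3 CCAAT boxes and *Kif11* had 1 CHR match and 1 CCAAT box. The first start of *Ccnd3* held no match and the second held 1 CCAAT box. A match describes the letters only.

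The values are log2 expression from robust multi-array averaging (RMA), so that a difference of 1 is a 2-fold change. Array medians over all probe sets were 5.41 to 5.44. The 1105 olfactory receptor genes, which T cells do not use, gave the spread of dim signals, with an SD of 0.25 to 0.30 for the log2 differences between array pairs. All 42 measured members had means above the median of all values (5.43), from 8.18 to 12.10 over the 5 arrays. The methods name no purification of T cells after the culture, and in RNA of whole cultures fewer dividing cells and less RNA of these genes per cell cannot be told apart.

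Most cell cycle genes had small differences between the cultures, and on the deposited scale the classic Th9 array was the highest for the majority of them, but not on a scale set by T cell identity genes. The range over the 5 arrays had a median of 0.22 on the log2 scale, against 0.33 for all named genes and 0.25 for the 5879 genes at least as bright as the dimmest member. A range of 1.5-fold or more was reached by 2 members, *Ccnd3* and *Cdkn1b* (4.76%), against 16.1% of all named genes and 12.6% of those of like brightness. The classic Th9 array was the highest for 26 of 42 members (61.9%), against 23.3% of all named genes on the deposited scale. It was highest for 1 of 42 when each array was centred on the mean of 9 T cell identity genes, which put the IL-1β Th9 array on top for 34. This centring shifts all genes of an array equally. It put the median of all named genes at 0.35 for IL-1β Th9 minus classic Th9. The share of all named genes highest in each array was not counted on that scale. The other scalings tried left classic Th9 highest for 25 to 28 members. As deposited, the Th1 array was the highest for 9 members (25.5% of all genes) and the TGF-β/IL-1β Th9 array for 5 (15.6%). The Th2 array was highest for *Cdkn2c* alone (15.7%) and the IL-1β Th9 array for *Ccnd2* alone (19.8%). The lowest deposited value lay in IL-1β Th9 for 18 members (25.2% of all genes), in Th2 for 10 (18.7%) and in Th1 for 8 (22.9%). For 5 it lay in TGF-β/IL-1β Th9 (15.2%), and for *Ccnd2* in classic Th9 (18%).

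**Figure D1:**
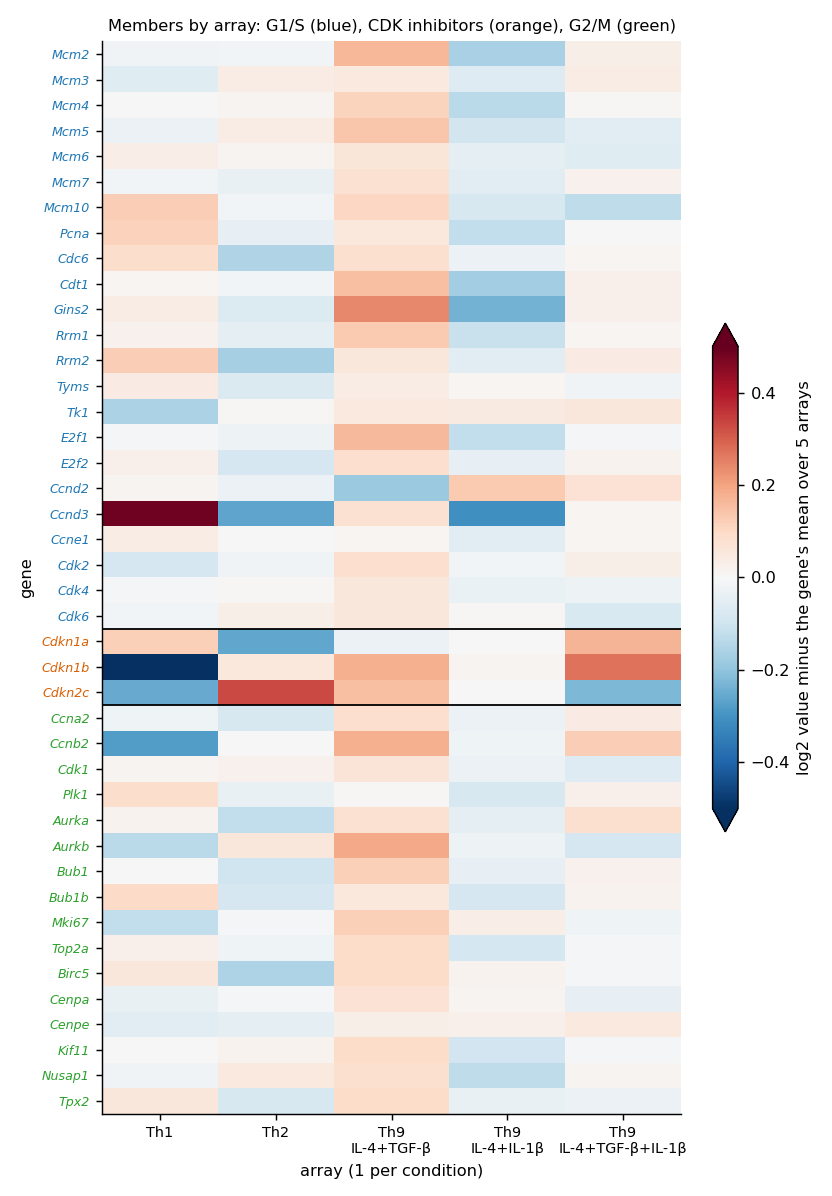
Each row is a member and each column an array, coloured by the log2 value minus the gene's own mean over the 5 arrays. The classic Th9 column is the reddest (highest for 26 of 42 genes, against 23.3% of all named genes), and the strongest single colours belong to *Ccnd3*, *Cdkn1b* and *Cdkn2c*. After centring on T cell identity genes, which shifts all genes of an array equally, classic Th9 was highest for 1 of 42.

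On the deposited scale, 8 of 11 genes of replication licensing and the fork were highest in classic Th9 cells (23.3% of all named genes). In IL-1β Th9 cells, 8 of 11 were lowest (25.2% of all named genes). *Gins2*, a subunit of the GINS complex of the replicative helicase, varied most among them, with 9.36 in Th1, 9.26 in Th2, 9.57 in classic Th9, 9.09 in IL-1β Th9 and 9.35 in TGF-β/IL-1β Th9 cells. Its value in IL-1β Th9 was 0.48 below classic Th9, and 0.10 below it after centring on T cell identity genes. *Mcm2*, of the MCM helicase loaded at origins, was 10.88, 10.88, 11.06, 10.73 and 10.93 in the same order, and *Cdt1*, which loads the helicase, was 10.16, 10.13, 10.30, 9.97 and 10.17. Both were 0.33 lower in IL-1β Th9 than in classic Th9, with the other 3 arrays in between, and 0.05 higher after that centring. The remaining helicase subunits differed less: *Mcm3* (range 0.11), *Mcm6* (0.12) and *Mcm7* (0.13) were nearly level, and *Mcm4* (0.24) and *Mcm5* (0.23) followed the order of *Mcm2* at the top and the bottom. *Mcm5*, whose promoter is shown above, was 11.77, 11.83, 11.93, 11.70 and 11.74.

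3 licensing and fork genes were instead highest in Th1 cells on the deposited scale (27.3%, against 25.5% of all named genes). *Pcna*, the sliding clamp of the DNA polymerases, was 12.21 in Th1, 12.05 in Th2, 12.15 in classic Th9, 11.97 in IL-1β Th9 and 12.09 in TGF-β/IL-1β Th9 cells. *Cdc6*, which acts with Cdt1 in loading the helicase, was 10.19, 9.95, 10.18, 10.07 and 10.11, so that Th2 was the lowest. *Mcm10*, needed to start the fork, was 9.75, 9.61, 9.73, 9.55 and 9.50. For all 3 genes, Th1 and classic Th9 lay within 0.06 of each other.

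The 4 genes of nucleotide synthesis had a median difference of -0.07 between IL-1β Th9 and classic Th9, against -0.18 for the 11 licensing and fork genes. *Rrm1*, the large subunit of ribonucleotide reductase, was 11.71, 11.64, 11.82, 11.58 and 11.70 in the order above, and *Rrm2*, its S-phase subunit, was 11.21, 10.92, 11.14, 11.03 and 11.12. *Rrm2* was thus highest in Th1 and lowest in Th2, 0.29 apart. A second, dim probe set of *Rrm2* had values of 4.21 to 5.22. *Tyms*, thymidylate synthase, stayed between 9.21 and 9.33. *Tk1*, thymidine kinase, was level at 10.43 to 10.48 in the 4 arrays with IL-4 and was 10.27 in Th1.

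The E2F activators had the same top array as most licensing genes. *E2f1* was 8.39 in Th1, 8.37 in Th2, 8.56 in classic Th9, 8.28 in IL-1β Th9 and 8.40 in TGF-β/IL-1β Th9 cells. *E2f2* was 9.49, 9.38, 9.55, 9.42 and 9.48. Both were highest in classic Th9 on the deposited scale, and *E2f1* was 0.28 lower in IL-1β Th9 (0.10 higher after centring on T cell identity genes).

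The D-type cyclins, which link cytokine and antigen signals to Cdk4 and Cdk6, included the member with the widest range. As deposited, they differed in opposite directions between IL-1β Th9 and classic Th9. *Ccnd3* was 11.07 in Th1, 10.32 in Th2, 10.66 in classic Th9, 10.27 in IL-1β Th9 and 10.59 in TGF-β/IL-1β Th9 cells. Its values formed 3 steps, with Th1 on top, both TGF-β cultures in the middle and both cultures with IL-4 but no TGF-β at the bottom. It was 0.75 higher in Th1 than in Th2 cells (1.68-fold), 0.34 higher in classic Th9 than in Th2 (1.27-fold), and 0.32 higher with TGF-β than without it in the presence of IL-1β. Centring on T cell identity genes left 0.61 between Th1 and Th2 but only 0.10 for either comparison with TGF-β. *Ccnd2* had the opposite order among the Th9 cultures, with 12.07 in Th1, 12.03 in Th2, 11.87 in classic Th9, 12.19 in IL-1β Th9 and 12.13 in TGF-β/IL-1β Th9. As deposited, it was the single member highest in IL-1β Th9 and the single one lowest in classic Th9, with 0.32 between them. After that centring this difference was 0.70, while *Ccnd3* differed by -0.007 between the same arrays. On that scale 34 of 42 members were highest in IL-1β Th9 and 21 were lowest in classic Th9.

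The G1 kinases and cyclin E1 were nearly constant. *Cdk4* was 11.63, 11.64, 11.69, 11.60 and 11.61, the narrowest range of all members (0.09). *Ccne1* stayed between 9.46 and 9.56, *Cdk6* between 11.23 and 11.36, and *Cdk2*, the partner of cyclins E and A, between 10.21 and 10.38. All 4 ranges were below the median range of the genes of like brightness.

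The CDK inhibitors did not move together. *Cdkn1b* (p27), an inhibitor of cyclin E-Cdk2 linked to quiescence, was 8.03 in Th1, 8.60 in Th2, 8.72 in classic Th9, 8.56 in IL-1β Th9 and 8.81 in TGF-β/IL-1β Th9 cells. The Th1 array was apart, 0.57 below Th2 (0.675-fold), and the 4 arrays with IL-4 lay within 0.26. *Cdkn2c* (p18), an inhibitor of Cdk4 and Cdk6, was 7.93 in Th1, 8.51 in Th2, 8.33 in classic Th9, 8.18 in IL-1β Th9 and 7.96 in TGF-β/IL-1β Th9. It was also lowest in Th1, 0.58 below Th2 (0.667-fold), but it stepped down across the Th9 cultures, and with IL-1β it was 0.33 lower than Th2 without TGF-β and 0.38 lower than classic Th9 with TGF-β. These 2 differences kept their direction under every scaling tried (-0.20 and -0.21 after centring on T cell identity genes). *Cdkn1a* (p21), a p53 target, was 12.02, 11.64, 11.87, 11.90 and 12.08. It was lowest in Th2, 0.38 below Th1, and 0.20 higher in TGF-β/IL-1β Th9 than in classic Th9. Th1 cells thus had the lowest *Cdkn1b* and *Cdkn2c* and the highest *Ccnd3*, with *Cdkn1a* near its top, and against Th2 these 4 differences kept their direction under every scaling tried.

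**Figure D2:**
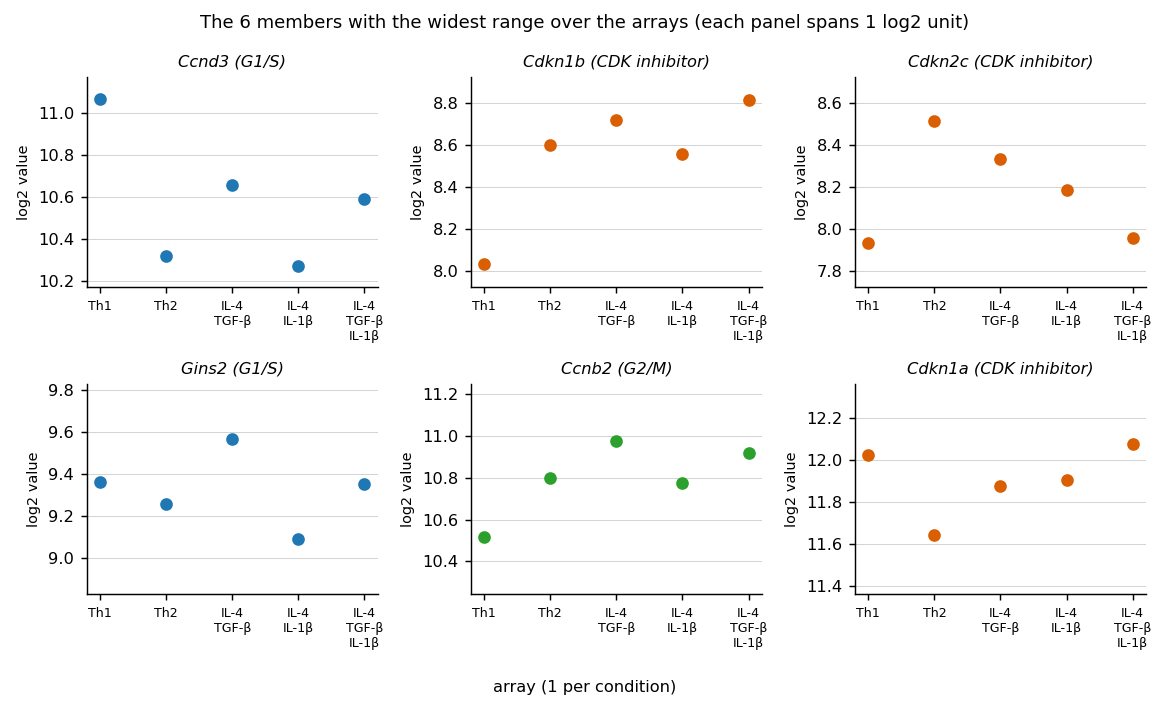
The log2 value of the 6 members with the widest ranges is plotted for each array, and every panel spans 1 log2 unit. *Ccnd3* was highest in Th1 (11.07), *Cdkn1b* was lowest there (8.03), and *Gins2* and *Ccnb2* were highest in classic Th9 (9.57 and 10.97) on the deposited scale.

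Among the G2/M genes, 12 of 16 were highest in classic Th9 cells on the deposited scale (23.3% of all named genes). None varied by 1.5-fold (16.1% of all named genes). *Ccnb2*, cyclin B2, had the widest range (0.46), with 10.52 in Th1, 10.80 in Th2, 10.97 in classic Th9, 10.77 in IL-1β Th9 and 10.92 in TGF-β/IL-1β Th9 cells. Th1 was its lowest array, and both arrays with TGF-β were its highest on that scale. *Cdk1*, the mitotic kinase, ranged only from 9.53 to 9.66, and *Ccna2*, cyclin A2, from 11.30 to 11.46.

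*Aurkb*, the kinase of the chromosomal passenger complex, was 10.78, 10.97, 11.10, 10.89 and 10.83, and *Mki67*, which encodes the proliferation marker Ki-67, was 11.59, 11.70, 11.83, 11.75 and 11.69. Both were lowest in Th1 and highest in classic Th9 cells on the deposited scale. *Birc5* (survivin), a partner of Aurora B, was 9.45, 9.24, 9.49, 9.41 and 9.39, and *Aurka*, the centrosomal Aurora kinase, was 10.08, 9.94, 10.14, 10.01 and 10.14. These 2 were lowest in Th2.

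The spindle checkpoint genes *Bub1* (9.62 to 9.84) and *Bub1b* (9.62 to 9.80), the Polo kinase gene *Plk1* (11.13 to 11.30) and the spindle factor genes *Tpx2* (10.96 to 11.13), *Kif11* (11.03 to 11.21) and *Nusap1* (10.48 to 10.69) each varied by 0.22 or less. On the deposited scale, *Plk1* and *Bub1b* were highest in Th1, and the others of this set in classic Th9. *Top2a*, which untangles sister chromatids, was 11.59, 11.55, 11.66, 11.48 and 11.56. The centromere genes *Cenpa* (9.52 to 9.63) and *Cenpe* (10.15 to 10.26) were the steadiest of the G2/M genes, each with a range of 0.11.

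The central comparison of the study sets IL-1β Th9 against classic Th9 cells. Of the 42 members, 40 had a lower value in IL-1β Th9, by a small amount: the median difference was -0.12 for G1/S genes (22 of 23 below 0) and -0.13 for G2/M genes (16 of 16), against -0.03 over all named genes, 54.4% of which were below 0. Centring on T cell identity genes turned these medians to 0.26 and 0.25 and that of all genes to 0.35, since it adds 1 constant to every gene. No member reached 1.5-fold, which 5.04% of all named genes did. A smaller cut-off was a log2 difference of 0.322 or more, written 0.32 below. By it, *Gins2*, *Ccnd3*, *Mcm2* and *Cdt1* were lower (4 of 42, against 11.7% of all genes) and none was higher (9.31% of all). *Ccnd2* was 0.317 higher, just short of this cut-off.

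Classic Th9 cells were then set against Th2 cells, whose medium lacked TGF-β and held IL-2. Here 40 of 42 members were higher in classic Th9, with a median of 0.11 for G1/S and 0.13 for G2/M genes. Over all named genes the median was 0.02, and 54.1% were above 0. *Ccnd2* and *Cdkn2c* were the 2 members not higher in classic Th9. Centring on T cell identity genes turned the G1/S and G2/M medians to -0.14 and -0.12, and that of all named genes to -0.23. No member reached 1.5-fold (3.05% of all genes), and at a log2 difference of 0.32, *Ccnd3* alone was higher (7.07% of all genes) and none was lower (7.06%). The same classic Th9 array enters both comparisons, and each other comparison likewise shares an array with some of the rest.

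With TGF-β in both media, the addition of IL-1β gave a median of -0.07 for G1/S and -0.10 for G2/M genes, with 34 of 42 members below 0 (52% of all genes). After centring on T cell identity genes these medians were 0.09 and 0.07, against 0.15 for all named genes. No member reached 1.5-fold (1.96% of all genes), and at a log2 difference of 0.32 none was higher (5.35% of all) and *Cdkn2c* was lower (6.34%). Without TGF-β, IL-1β Th9 and Th2 cells differed by a median of -0.05 for G1/S and 0.01 for G2/M genes, with 26 of 42 members below 0 (51.3% of all genes). After that centring these medians were 0.08 and 0.14, against 0.13 for all named genes. Again no member reached 1.5-fold (2.39% of all), and at a log2 difference of 0.32 none was higher (6.84% of all) and *Cdkn2c* was lower (8.34%). The addition of TGF-β to the IL-1β Th9 medium gave a median of 0.07 for both groups, with 31 of 42 members above 0 (52.4% of all genes) and no member past 1.5-fold (3%). After that centring the median was -0.15 for both, against -0.20 for all named genes. No member reached the log2 cut-off of 0.322, either higher (8.76% of all genes) or lower (7.6%). *Ccnd3*, 0.317 higher with TGF-β, fell just short of it.

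Between Th1 and Th2 cells, both given IL-2, the largest differences lay in single regulators. The median was 0.02 for G1/S and 0.02 for G2/M genes, and 24 of 42 members were above 0 (52.3% of all genes). Centring on T cell identity genes put these medians at -0.12 and -0.13, and that of all named genes at -0.13. *Ccnd3* was the 1 member past 1.5-fold (1 of 42, against 5.84% of all named genes in either direction and 2.55% in this one), and *Cdkn2c* (-0.58) and *Cdkn1b* (-0.57) lay just short of this fold. After centring on T cell identity genes, *Cdkn2c* (-0.73) and *Cdkn1b* (-0.71) also passed it, and 7 of 42 members were above 0. The shares of all named genes past that fold or above 0 were not counted on that scale. At a log2 difference of 0.32 on the deposited scale, *Ccnd3* and *Cdkn1a* were higher (9.15% of all genes) and *Cdkn1b* and *Cdkn2c* lower (9.47%).

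**Figure D3:**
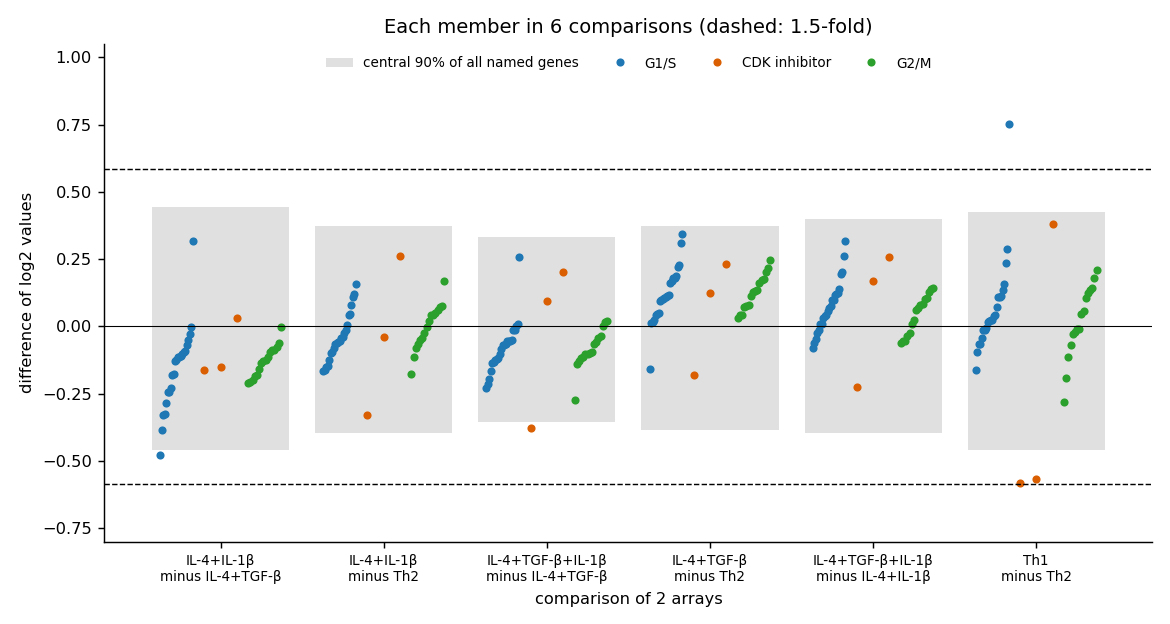
Each point is the log2 difference of 1 member between 2 arrays, sorted within its group, with the central 90% of all named genes in grey and 1.5-fold as dashed lines. *Ccnd3* in Th1 minus Th2 (0.75) is the single point beyond the dashed lines, and the shift of most points below 0 in the first comparison and above 0 in classic Th9 minus Th2 turned round when arrays were centred on T cell identity genes. That centring shifts all genes of a comparison equally.

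Of 47 further replication genes, 34 were lower in IL-1β Th9 than in classic Th9 cells (median -0.09), against 54.4% of all named genes. In classic Th9, 41 were higher than in Th2 cells (median 0.08), against 54.1%. None of the 47 reached 1.5-fold in any of the 6 comparisons, which 1.96% to 5.84% of all named genes did. The widest were *Pole2*, a subunit of DNA polymerase epsilon (a range of 0.64, with 9.51 in Th2, 9.27 in classic Th9, 9.64 in IL-1β Th9 and 9.42 in TGF-β/IL-1β Th9), and *Cdc25a*, the phosphatase that activates Cdk2 (10.31, 9.82, 9.92, 9.88 and 9.84). *Pole2* was lowest and *Cdc25a* highest in Th1. Of 58 further mitosis genes, 48 were lower in IL-1β Th9 than in classic Th9 (median -0.11, 54.4% of all named genes). In classic Th9, 52 were higher than in Th2 (median 0.09, 54.1% of all named genes). The 1 that reached 1.5-fold was *Cdc25b*, a phosphatase that activates Cdk1, with 8.30 in Th1 and 9.02 in Th2 (5.84% of all named genes between these arrays). Centring on T cell identity genes, which shifts all genes of a comparison equally, put the medians of IL-1β Th9 minus classic Th9 and of classic Th9 minus Th2 at 0.29 and -0.17 for replication and at 0.27 and -0.16 for mitosis.

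Among 28 further regulators, the ranges were wider (median 0.32), and 4 reached 1.5-fold (14.3%, against 16.1% of all named genes). *Cdkn2a*, which encodes p16 and p19Arf, was 7.03 in Th1, 6.38 in Th2, 6.12 in classic Th9, 6.91 in IL-1β Th9 and 6.28 in TGF-β/IL-1β Th9 cells. *Rbl2*, the pocket protein p130 of quiescent cells, was 10.59, 10.56, 10.96, 10.26 and 10.70. The 2 arrays with TGF-β were thus the lowest for *Cdkn2a* and the highest for *Rbl2*. *Btg2*, an antiproliferative gene, was 8.28, 8.99, 8.80, 9.03 and 8.78, and *Ccng2*, a cyclin of non-dividing cells, was 7.76, 8.35, 8.43, 8.13 and 8.26. Both were lowest in Th1, as was *Cdkn1b*.

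Markers of some cell types differed between the same arrays, and those of T cells, B cells and plasma cells by more than the cell cycle genes in IL-1β Th9 minus classic Th9 and in classic Th9 minus Th2. *Cd3e* (12.43 to 12.71) and *Cd4* (11.91 to 12.40) were bright in every array. The median of the 9 T cell identity genes measured, of 13 listed, was 10.89, 10.45, 10.72, 10.29 and 10.64. Their median difference was -0.44 for IL-1β Th9 minus classic Th9 (8 of 9 lower, against 54.4% of all named genes). It was 0.24 for classic Th9 minus Th2 (8 of 9 higher, against 54.1%). *Cd5* went the other way in both (0.44 and -0.32). The median of 11 B cell markers was 9.52, 9.57, 9.03, 9.72 and 9.23, and all 11 were lower in classic Th9 than in Th2 (45.9% of all named genes). In IL-1β Th9, 10 of the 11 were higher than in classic Th9 (45.5% of all named genes), and *Fcer2a* was lower (9.91 against 10.55). The brightest, *Cd79a*, ranged from 11.74 to 12.33, and *Ms4a1* (CD20) from 10.21 to 10.81. The median of 6 plasma cell markers was 6.89, 8.85, 6.45, 9.19 and 6.67, with *Mzb1* at 8.48, 10.28, 8.07, 10.52 and 8.54. The widest of them was *Jchain*, the joining chain of secreted IgM and IgA, at 7.03, 9.30, 4.68, 9.63 and 4.89. The plasma cell receptor gene *Tnfrsf17* stayed at 3.73 to 4.25, near the olfactory receptor genes, whose array medians were 3.34 to 3.45. Among 15 myeloid and dendritic markers (array medians 5.83 to 6.07) the brightest was *Cd68* (8.24 to 9.39), and 11 were higher in IL-1β Th9 than in classic Th9. Among 13 mast cell and basophil markers (4.82 to 5.23, below the median of all values) *Cpa3* was the brightest (7.95 to 9.27). Here too 11 were higher in IL-1β Th9 (45.5% of all named genes), while *Fcer1a* stayed at 4.57 to 4.82. Array medians were 7.34 to 8.36 for 5 NK and CD8 T cell markers and 5.33 to 5.56 for 4 erythroid markers.

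On the deposited scale the cell cycle genes were thus lowest most often in IL-1β Th9. That array had the lowest T cell identity median and the highest B and plasma cell array medians. Gene by gene, 7 of 11 B cell markers were lower in IL-1β Th9 than in Th2 (63.6%, median -0.13), against 51.3% of all named genes. Of these markers, 6 were highest in Th2 (15.7% of all named genes) and 2 in IL-1β Th9 (19.8%). The part of cell composition in these differences was not tested. When each array was centred on the T cell identity genes, the median of all named genes was 0.35 for IL-1β Th9 minus classic Th9 and -0.23 for classic Th9 minus Th2. Between Th1 and Th2, *Ccnd3*, *Cdkn1b* and *Cdkn2c* differed most among the members. There the median difference of the T cell identity genes was -0.00 (4 of 9 higher, against 52.3% of all named genes). Their mean difference, which sets the centring, was 0.15. B cell and plasma cell markers had medians of -0.41 and -1.32, whose part was not tested.

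**Figure D4:**
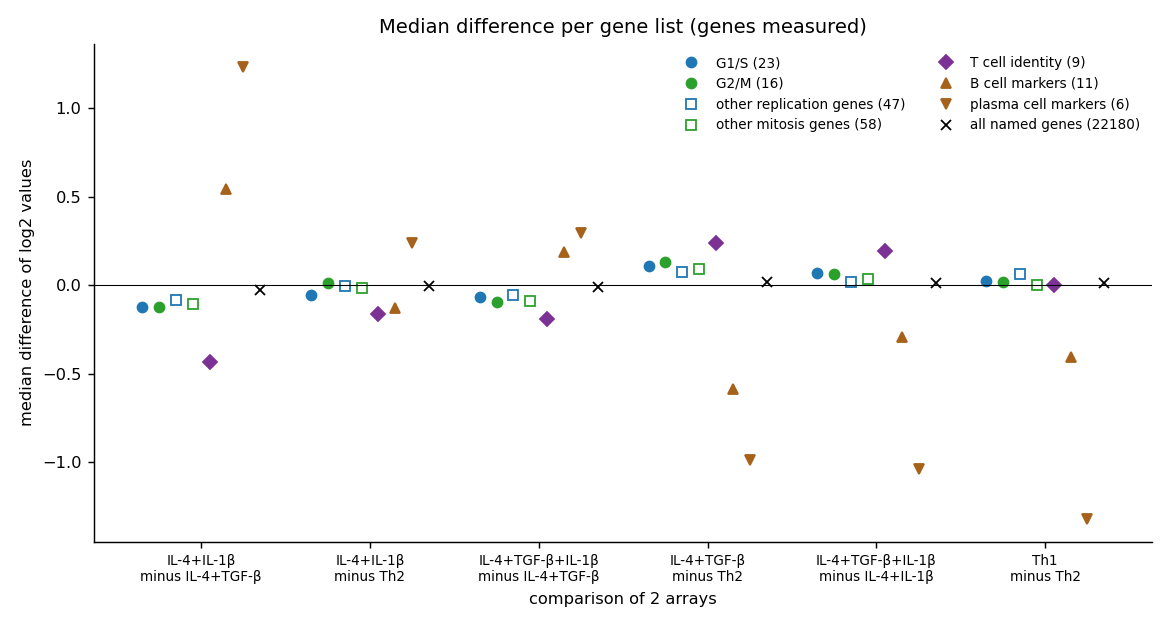
Each symbol is the median log2 difference of a gene list between 2 arrays, with the number of genes measured in the key. The cell cycle lists stay within 0.13 of 0 in all 6 comparisons, whereas T cell identity genes reach -0.44 and plasma cell markers 1.24 and -1.32. Centring on T cell identity genes turned round the cell cycle medians, and the median of all named genes, in the first comparison and in classic Th9 minus Th2.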

How the data were processed

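RNA of 5 cultures was measured on 1 array each. The authors ran RMA in Affymetrix Expression Console to obtain 1 value per transcript cluster (probe set) and deposited log2 values. Their versions and the genome build were not given in the sources used here. RMA corrects for background and quantile-normalizes the arrays, so a change shared by most genes is removed. The values were used as deposited. Of 41345 transcript clusters, 23521 carry 1 symbol in the platform annotation and 1820 several, and the latter and the unnamed ones were not used. A gene is its brightest cluster, which gives 22180 genes. With 1 array per condition no test was made, and the number of arrays limits the precision. A gene counted as changed at 1.5-fold.

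The members, lists and comparisons were chosen with earlier results of these data known. Named genes are all members and, from each other list, up to 4 genes with the widest range among those above the median of all values, and the most abundant markers. *Fcer1a*, *Tnfrsf17*, *Ms4a1* and *Cd3e* were added as defining markers. The histone list was adapted to the symbols in the files after they were seen. Promoters came from RefSeq. The alternatives were other scalings, log2(linear value + 16), another fold, a filter on dim genes, the mean over clusters and the list mean. The counting was checked on simulated data. Python 3.11.15, numpy 2.4.6, pandas 2.3.3 and matplotlib 3.10.9 were used.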

Additional observations from a re-analysis of the deposited data

How the results depend on the processing

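No paired analysis was possible because each condition has 1 array. In 168 of 184 repeats of the main results, the count stayed within 1.5 times, or the median moved by less than the SD of the olfactory receptor genes without a turn of a median of 0.1 or more. That SD (0.25 to 0.30) exceeds every group median (0.13 at most in size), so this number cannot show that the medians were stable. A turn of the G1/S median for Th1 minus Th2 from 0.02 to -0.12 counted as unchanged. Most counts at 1.5-fold were 0 on the deposited scale. Centring arrays on T cell identity genes shifts all genes of a comparison equally, and the median of all named genes changed sign in each. With arrays so centred, 11 of 12 group medians changed sign. The exception, the G2/M median for IL-1β Th9 minus Th2 (0.01), changed sign under 5 other settings. At a log2 difference of 0.32 in place of 1.5-fold, the members counted were 4 for IL-1β Th9 against classic Th9, 1 for IL-1β Th9 against Th2, 1 for TGF-β/IL-1β Th9 against classic Th9, 1 for classic Th9 against Th2 and 4 for Th1 against Th2. At 2-fold, the count for Th1 against Th2 was 0. With the mean over the clusters of a symbol it was 2, the added gene being *Rrm2* with its dim second cluster. 2 scalings were chosen after seeing the data. With arrays centred on T cell identity genes, the medians for IL-1β Th9 minus classic Th9 became 0.26 (G1/S) and 0.25 (G2/M) with 1 member counted, those for classic Th9 minus Th2 became -0.14 and -0.12, Th1 against Th2 had 3 members counted, and the members highest in classic Th9 numbered 1 and those lowest in IL-1β Th9 numbered 0. With arrays centred on genes as bright as the members, Th1 against Th2 had 2. Centring on the 75th percentile moved the median of all named genes to -0.10 for IL-1β Th9 minus classic Th9, with G1/S and G2/M at -0.20 each. It also gave medians of -0.12 and -0.05 for IL-1β Th9 minus Th2, 0.15 and 0.14 for TGF-β/IL-1β Th9 minus IL-1β Th9, and 0.07 and 0.06 for Th1 minus Th2. For single genes, 44 of 2016 repeats moved by more than the spread of the olfactory receptor genes.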

Other observations

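Genes of neighbouring programs of growth control included some with wider ranges than the cell cycle genes. Their values are on the deposited scale, and centring on T cell identity genes was not run for these lists. Among 15 measured p53 targets, 12 were higher in Th1 than in Th2 cells (median 0.23), against 52.3% of all named genes. The widest was *Perp*, a membrane protein gene of the p53 response, with 8.78 in Th1, 7.86 in Th2, 7.36 in classic Th9, 7.87 in IL-1β Th9 and 7.95 in TGF-β/IL-1β Th9 cells. *Btg2*, which is also a p53 target, had the opposite order between Th1 and Th2, with 8.28 and 8.99. *Myc*, a driver of growth listed with the TGF-β targets, was 11.34, 10.90, 10.74, 11.04 and 10.93, highest in Th1 and lowest in classic Th9 cells. *Itgae* (CD103), induced by TGF-β in T cells, was 5.52, 6.88, 8.40, 6.60 and 7.27 and marked both cultures with TGF-β. Over the 11 TGF-β targets measured, 7 were higher in classic Th9 than in Th2 cells (median 0.09), which is 63.6% against 54.1% of all named genes. The list was not split by the direction in which TGF-β acts on each gene, so this count does not measure a TGF-β response.

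Of 8 IL-2 and STAT5 targets, *Socs2*, a feedback inhibitor of cytokine signaling, was 10.06, 11.09, 11.19, 11.24 and 11.11, with Th1 apart from the 4 cultures with IL-4. *Lta*, the lymphotoxin gene, had the opposite pattern, with 11.00 in Th1 and 9.82 to 10.25 in the others. The list's median difference between Th1 and Th2 was 0.20, with 6 of 8 genes higher (52.3% of all named genes). Of 25 measured histone genes, whose transcripts are made in S phase, 15 were lower in IL-1β Th9 than in classic Th9 cells (median -0.09), against 54.4% of all named genes, and 19 were higher in classic Th9 than in Th2 (median 0.11), against 54.1%. Of the 25, 9 had means below the median of all values. The 2 with the highest means, singled out after their values were seen, differed in pattern: *H4c12* was 12.30, 12.26, 12.45, 12.48 and 12.47, and *H2ac10* was 12.33, 12.42, 12.46, 12.28 and 12.39. The first was highest and the second lowest in IL-1β Th9 cells.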
